A study of Mus musculus with 32 samples.

Results

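The effect examined here is the difference in open chromatin between haematopoietic stem and progenitor cells (HSPCs) of AF9-experienced and naive mice that is shared by PBS-injected and LPS-injected animals. Its members are all 16 peak lists of the series, 9 from AF9-experienced mice (4 after PBS, 5 after LPS) and 7 from naive mice (4 after PBS, 3 after LPS), compared with the injection as a blocking factor. The question is whether past exposure to MLL-AF9 cells left a mark on the chromatin of healthy HSPCs whatever the later injection.

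AF9-experienced mice were lethally irradiated C57BL/6J recipients (CD45.2) that received 200000 non-induced marrow cells of iMLL-AF9 mice (CD45.1; homozygous for hMLL-AF9 and rtTA) together with 800000 marrow cells of healthy wildtype mice (CD45.1+/2+). In naive mice the first part of the graft was hMLL-AF9-null and homozygous for rtTA only, with the same number of wildtype cells. All mice of both kinds began doxycycline 6 to 8 weeks after the transplant, kept it for 5 weeks and were then without it for 4 weeks, and all were killed 24 hours after an injection of PBS, a salt buffer, or LPS, a bacterial endotoxin. Doxycycline switches the fusion gene on through rtTA. The cells assayed were the wildtype donor's CD45.1+/2+, Lin- cKit+ Sca1+ cells, so none of the sorted cells should carry the fusion gene. The age of the mice, the LPS dose, the promoter that drives rtTA and any pooling of mice are not given in the sources used here.

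MLL-AF9 is a fusion of a histone methyltransferase with a transcription elongation partner. It keeps stem cell genes such as Hoxa9 and Meis1 active in myeloid leukaemia. HSPCs that share a marrow with leukaemia cells meet altered cytokines and an altered niche, and inflammatory exposure is known to be able to leave lasting marks on the chromatin of such cells. ATAC-seq reads open DNA through the insertions of a transposase, and promoters and enhancers in use appear as peaks.

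The lists held 19448 to 88816 peaks. Their values are not scaled between libraries, so each list was reduced to its 19100 strongest autosomal peaks and a region was given the percentile rank of its strongest peak in that list. The scale runs from 0, where a list has no peak among those 19100, to 100, its top peak. All differences below are AF9-experienced minus naive, in percentile points. The 3 shortest lists stood apart, also in their weak enrichment. Naive PBS 1 held 19448 peaks, naive LPS 3 held 39464 and AF9-experienced PBS 1 held 25685, with median fold enrichments of 5.07, 6.58 and 5.34 against 9.16 to 19.4 in the other 13. Counts and named values were therefore also computed without them. Cell type markers were looked up only among the 19100 strongest autosomal peaks of each list. A marker without a peak there may have a weaker one. Gene-end peaks of the stem and progenitor markers Kit, Cd34 and Flt3 were in all 16 lists, that of Procr in 5, and Ly6a, Slamf1 and Cd27 had none. None of the 5 B cell, 2 NK cell or 6 mast cell and basophil markers had a gene-end peak in any list, and of 6 neutrophil markers only Camp (1 list) and Mmp8 (8 lists) had one. Other lineages were not all at 0: Cd3d (1 of 5 T cell markers), the erythroid genes Klf1 and Epor and the stromal gene Col1a1 had a gene-end peak in all 16 lists. Exposure differences at those 4 gene ends were 4.49 (SE 3.16), -1.87 (SE 2.10), 6.96 (SE 4.37) and -8.15 (SE 6.12), none of them past the test, and the part of such cells in the results was not tested.

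Promoter sequence is shown first for 4 gene ends among the regions described below. Zfand2a and Anp32e are those with a RefSeq window among the 12 regions with the smallest p for a higher rank in AF9-experienced lists. Among the 12 for a lower rank, Pcgf6 was the gene end at which the groups were apart in both treatments, and Scaf8 had the smallest p. Each line gives the 250 bases before the RefSeq start (GRCm38.p6), read 5′ to 3′ on the gene's own strand, with CCAAT boxes, in either orientation (CCAAT or ATTGG), in capitals. The windows are chr5:139484492-139484741 on the minus strand, chr3:95929007-95929256 on the plus strand, chr19:47050907-47051156 on the minus strand and chr17:3114722-3114971 on the plus strand.
Zfand2a: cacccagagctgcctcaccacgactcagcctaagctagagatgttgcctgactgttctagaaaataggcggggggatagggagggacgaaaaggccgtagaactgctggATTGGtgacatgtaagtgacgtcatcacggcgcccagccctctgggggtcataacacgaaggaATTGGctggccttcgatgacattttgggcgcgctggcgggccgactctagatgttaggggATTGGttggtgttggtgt
Anp32e: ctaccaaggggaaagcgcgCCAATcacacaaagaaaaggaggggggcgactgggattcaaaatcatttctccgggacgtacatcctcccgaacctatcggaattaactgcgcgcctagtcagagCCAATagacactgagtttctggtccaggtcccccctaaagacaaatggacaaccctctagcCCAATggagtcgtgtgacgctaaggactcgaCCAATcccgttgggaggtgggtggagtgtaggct
Pcgf6: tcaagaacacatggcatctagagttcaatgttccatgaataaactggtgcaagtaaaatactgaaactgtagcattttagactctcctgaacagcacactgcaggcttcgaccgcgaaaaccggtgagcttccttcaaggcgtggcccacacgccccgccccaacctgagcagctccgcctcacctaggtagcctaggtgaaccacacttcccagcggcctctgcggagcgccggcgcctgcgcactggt
Scaf8: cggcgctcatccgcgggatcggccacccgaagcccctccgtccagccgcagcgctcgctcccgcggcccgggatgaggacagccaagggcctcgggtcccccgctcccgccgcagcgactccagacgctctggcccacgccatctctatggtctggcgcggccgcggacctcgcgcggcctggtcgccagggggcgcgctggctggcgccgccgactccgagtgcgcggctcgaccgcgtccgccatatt
The CCAAT box, the site of the factor NF-Y, was found 3 times before Zfand2a and 4 times before Anp32e, and not in the letters shown for Pcgf6 and Scaf8. These genes do not stand for their groups: in the longer windows searched it was found once at Scaf8, and 2 times, once and once at Ddx43, Cldn12 and Map6d1, whose gene ends also ranked lower, and not at Gpatch2l, whose gene end ranked higher. It was added to the motifs after these windows had been seen.

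No region passed the test between AF9-experienced and naive HSPCs once treatment was accounted for. Of 23554 tested regions, limma called 0 higher (0%) and 0 lower (0%) at an adjusted p under 0.05, and the smallest adjusted p was 0.943. At an unadjusted p under 0.05, 572 regions (2.43%) were higher and 474 (2.01%) lower, together 4.44% of those tested. The same model, lists and regions gave 1757 regions higher (7.46%) and 1369 lower (5.81%) after LPS than after PBS, and the median standard error was nearly equal for both effects, 4.59 points for exposure and 4.55 for LPS. The median size of the exposure difference was 2.89 points against 4.97 for LPS, and differences over 20 points were found in 0.123% of regions for exposure and 7.88% for LPS. The 95% interval of the exposure difference lay wholly within 20 points of 0 in 84.3% of regions and within 10 points in 34.0%. The median distance from the estimate to the end of its interval was 9.48 points.

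The comparisons within PBS and within LPS took their estimate of spread from all 16 lists together. After PBS, 4 lists against 4, no region was called (0% in each direction, smallest adjusted p = 1, limma). At an unadjusted p under 0.05, 422 were higher and 331 lower. After LPS, 5 lists against 3, 0 regions were called higher and 3 lower (0.0127%). No region was called for the interaction of exposure and treatment (0% in each direction; smallest adjusted p = 0.880; 316 and 377 at an unadjusted p under 0.05). The 3 regions called after LPS lie inside Rnf180, a ubiquitin ligase gene (chromosome 13, 105139872 to 105140333), Fyb, an adaptor of immune cells (chromosome 15, 6574437 to 6574978), and Akap13, a scaffold of kinase A signalling (chromosome 7, 75699641 to 75700258). They were named after their values were seen. None of the 3 is a shared difference, since every PBS list stood at 0 for all of them. The PBS lists thus had no spread there, yet they enter the estimate of spread behind the adjusted p of these regions. The Rnf180 region was at 24.7, 30.0 and 35.4 in the naive LPS lists and at 0, 0, 0, 0 and 4.88 in the AF9-experienced LPS lists (difference -29.1, limma adjusted p = 0.0101). The Fyb region was at 30.8, 27.1 and 27.0 against 0, 4.18, 0, 0 and 2.91 (difference -26.9, adjusted p = 0.0101), and the Akap13 region at 19.1, 43.9 and 25 against 0 in all 5 (difference -29.3, adjusted p = 0.0269). These regions had a peak in 4, 5 and 3 of the 16 lists, including all 3 naive LPS lists, so they entered the test through the group where they rank high, and the Akap13 region through it alone. Its adjusted p was 0.0275 to 0.106 when 1 of the other 13 lists was left out, and without any 1 naive LPS list it was not tested. Without AF9-experienced LPS 3 or without AF9-experienced LPS 4, 0 were called lower. Without naive LPS 1 or without AF9-experienced LPS 5, 9 were called lower and 1 and 3 higher, and 1 higher without AF9-experienced LPS 1.

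**Figure D1:**
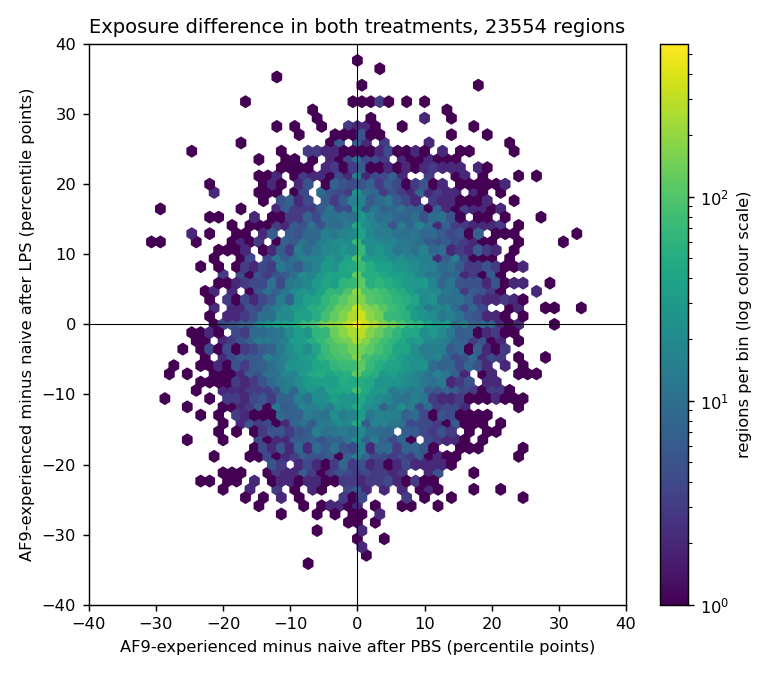
Exposure difference of each tested region after PBS (horizontal axis) and after LPS (vertical axis), in percentile points. Colour gives the number of regions per hexagon on a log scale. The cloud is centred near 0 with little tilt, and 48.7% of the 23554 regions lie where both differences have the same sign, at the lower left and upper right.

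Regions differed in the same direction after PBS and after LPS only slightly more often than in opposite directions. In the 23554 regions the sign was the same at 11472 (48.7%; 6008 higher and 5464 lower in both), opposite at 9843 (41.8%), and 2239 had no difference in at least 1 treatment. The comparisons share no list. Across regions, which are not independent and share list length and depth, Pearson's r between both differences was 0.10 (n = 23554) and Spearman's coefficient 0.10. Without the 3 short lists both were 0.04, and 46.2% of 22664 regions had the same sign against 43.0% opposite.

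Regions picked in one treatment alone kept their sign in the other more often than all regions did, but not in every set of lists. Of 162 regions with an unadjusted p under 0.01 after PBS, 109 (67.3%) had the same sign after LPS, 52 the opposite sign and 1 no difference. Of 168 picked after LPS, 96 (57.1%) had the same sign after PBS, 51 the opposite sign and 21 no difference. Only 47 regions had an unadjusted p under 0.05 in both treatments, 28 with the same sign and 19 with opposite signs. Without the 3 short lists the same-sign shares were 55.4% of 444 and 38.6% of 158, the second below the 46.2% of all regions. With peaks ranked by fold enrichment they were 52.8% of 36 and 50.4% of 234, beside 48.3% of all regions.

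The lists of both exposure groups did not fully separate in both treatments at more than a few regions. At 9 regions (0.0382%) all AF9-experienced lists ranked above all naive lists within PBS and within LPS, and at 9 (0.0382%) below.

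Gene-end regions, those within 1 kb of either end of a protein-coding gene model, leaned lower in AF9-experienced lists, and regions away from genes leaned higher. The median difference was -0.57 points over 10002 gene-end regions, 1.03 over 7591 regions inside genes, 1.0 over 4525 within 50 kb of a gene and 1.49 over 1436 farther away. By treatment the gene-end median was -0.08 after PBS and -1.0 after LPS, the median inside genes 0 and 1.01, that within 50 kb 0.08 and 0.80, and the distal median 0.27 and 1.57. Without the 3 short lists the medians over both treatments were nearer 0 in each class, at -0.38, 0.40, 0.24 and 0.82. Gene ends made up 60.8% of the 474 regions lower at an unadjusted p under 0.05 and 22.6% of the 572 higher ones, beside 42.5% of all tested regions. These shares depended on the short lists: without them gene ends were 53.9% of the lower and 43.6% of the higher regions, against 43.2% of those tested. They were 46.1% and 9.0% against 36.3% when peaks were ranked by fold enrichment. With median fold enrichment as a covariate they were 63.1% of the lower and 23.8% of the higher regions in all lists. With that covariate and without the short lists they were 51.2% and 30.3%. The share of gene-end peaks per list, the direct measure, was 49.4%, 49.6%, 48.0% and 48.4% in naive PBS lists 1 to 4 and 48.7%, 47.8%, 48.5% and 47.6% in AF9-experienced PBS lists 1 to 4. After LPS it was 47.0%, 47.5% and 50.8% in naive lists 1 to 3 and 48.6%, 47.8%, 46.2%, 47.5% and 45.4% in AF9-experienced lists 1 to 5. Both pairs of groups overlap, and the mean difference of -1.02 percentage points did not pass an exact two-sided permutation test of the exposure labels within treatment (p = 0.117, 3920 arrangements; adjusted p = 0.585 over 5 measures; the smallest p possible is 0.000255).

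Of the 10002 gene-end regions, 7359 overlapped a RefSeq promoter window of 300 bases. The windows were searched on both strands for AP-1 (TGANTCA), ETS (CCGGAAGT), NRF1 (GCGCATGC) and the CCAAT box, which do not contain each other. CCAAT was in 50 of 93 windows (53.8%) at gene ends higher at an unadjusted p under 0.05 and in 71 of 221 (32.1%) at lower ones, beside 38.7% at all tested gene ends and 37.3% of 31365 autosomal promoter windows. AP-1 was in 9 (9.68%) and 7 (3.17%) of these windows, beside 4.02% at tested gene ends. Without the 3 short lists these contrasts were gone: CCAAT was in 35.6% of 146 windows at higher and 39.0% of 254 at lower gene ends, and AP-1 in 4.79% and 4.72%. The ETS shares were 7.53% and 7.69% beside 8.91%, and the NRF1 shares 4.30% and 6.33% beside 6.03%. Without the short lists the ETS shares at higher and lower gene ends were 5.48% and 9.06%, and the NRF1 shares turned their order, at 8.22% and 4.72%.

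The 12 regions with the smallest p for a higher rank in AF9-experienced lists, among those with the same sign in both treatments, lay mostly outside gene ends (9 of 12). None was called: each had an adjusted p of 0.943 in limma, and they are the extremes of 23554 regions. Their direction was the same in each of the 32 other settings that gave a value, while their size varied. Those settings reuse the lists from which the regions were picked, so a kept direction is no separate evidence. Of the 12, 3 had a peak in all 16 lists, and at the others 1 to 6 lists had none.

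A region inside Pdgfb, the B chain of a platelet-derived growth factor (chromosome 15, 80005828 to 80006826), stood at 0, 39.3, 31.3 and 30.7 in naive PBS lists 1 to 4 and at 58.1, 39.4, 47.0 and 48.7 in AF9-experienced PBS lists 1 to 4. After LPS it stood at 0, 19.6 and 0 in naive lists 1 to 3 and at 22.9, 36.7, 33.4, 38.6 and 30.8 in AF9-experienced lists 1 to 5. The groups did not overlap in either treatment but nearly met after PBS, and the difference was 24.4 (95% interval 11.9 to 36.9; unadjusted p = 0.00051, limma), or 16.8 without the short lists. A region 5.81 kb from Homer3, a scaffold protein of synapses and calcium signalling (chromosome 8, 70276298 to 70277074), stood at 0, 4.01, 8.13 and 15.2 against 53.9, 17.2, 25.6 and 25.8 after PBS. After LPS the same region was at 0 in all 3 naive lists and at 20.1, 25.3, 6.55, 34.3 and 20.2 in the AF9-experienced ones (difference 22.6, interval 10.9 to 34.3; 17.4 without the short lists).

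Ptpn3 encodes a tyrosine phosphatase. A region inside it (chromosome 4, 57294871 to 57295546) was at 23.6, 16.1, 13.8 and 29.0 in naive PBS lists and at 35.7, 34.3, 36.8 and 30.8 in AF9-experienced PBS lists. After LPS the naive lists were at 0, 0 and 3.56 there, below the 21.1, 22.4, 38.6, 23.2 and 33.1 of the AF9-experienced lists (difference 19.9, interval 9.25 to 30.6; 20.8 without the short lists). A region 6.96 kb from Abca4, a retinal lipid transporter gene (chromosome 3, 122187030 to 122187595), was at 0 in all 4 naive PBS lists and at 12.2, 10.7, 3.52 and 15.3 in the AF9-experienced ones, and at 0, 7.0 and 0 against 16.5, 20.5, 22.2, 16 and 18.1 after LPS. Both sets of groups are apart, but at the weak end of the scale. The Abca4 region had a peak in every AF9-experienced list and in only 1 naive list. It therefore entered the test through the group where it ranks high.

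The gene end of Zfand2a (chromosome 5, 139483879 to 139485025), a stress-inducible zinc finger gene, was near the top of every list. It stood at 88.5, 92.2, 93.9 and 92.5 in naive PBS lists and 95.1, 97.3, 94.3 and 95.9 in AF9-experienced ones, then at 94.8, 88.1 and 88.3 against 94.9, 94.8, 96.8, 95.8 and 96.6 after LPS. The groups met within 0.1 point after LPS, and the difference was 4.63 (interval 1.98 to 7.29). Anp32e, which encodes a chaperone that removes the histone variant H2A.Z, had a gene end (chromosome 3, 95928682 to 95930532) at 82.3 ± 4.28 (SD, n = 4) in naive PBS, 88.4 ± 4.58 (n = 4) in AF9-experienced PBS, 86.1 ± 3.20 (n = 3) in naive LPS and 92.8 ± 2.31 (n = 5) in AF9-experienced LPS lists, with overlap after PBS only (difference 6.42, interval 2.66 to 10.2).

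The gene end of Adgrg1 (chromosome 8, 94973234 to 94973978), an adhesion receptor of blood stem cells also known as GPR56, had a peak in 1 of 4 naive PBS lists (2.34) and in 3 of 4 AF9-experienced ones (26.6, 0, 14.0 and 16.4). After LPS it was at 6.12, 12.8 and 3.35 against 24.9, 24.8, 40.6, 49.4 and 42.4, which do not overlap (difference over both treatments 21.1, interval 9.69 to 32.5). Nfic, a nuclear factor I gene, had the smallest p of all regions (unadjusted p = 0.000209) at a region inside it (chromosome 10, 81413663 to 81414513). That region was at 2.90 ± 3.92 (n = 4) against 35.6 ± 7.34 (n = 4) after PBS, and at 0 in the 3 naive LPS lists against 0 to 25 in the 5 AF9-experienced ones, a difference of 32.7 after PBS and 12.5 after LPS. Only 2 naive lists, both after PBS, had a peak there, so the region entered the test through the AF9-experienced lists. Of the remaining 4, a region inside Arid1a, a subunit of the BAF chromatin remodeller, differed by 22.7, or 13.5 without the short lists. Regions inside Tbcd, a tubulin folding cofactor gene, and Itpkb, an inositol trisphosphate kinase gene, differed by 14.0 and 4.90. The Tbcd region had a peak in 1 naive list of each treatment and so also entered the test through the AF9-experienced lists. The last, on chromosome 14 from 25345534 to 25346528, is 111 kb from the nearest gene model. It differed by 24.4, or 17.5 without the short lists.

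**Figure D2:**
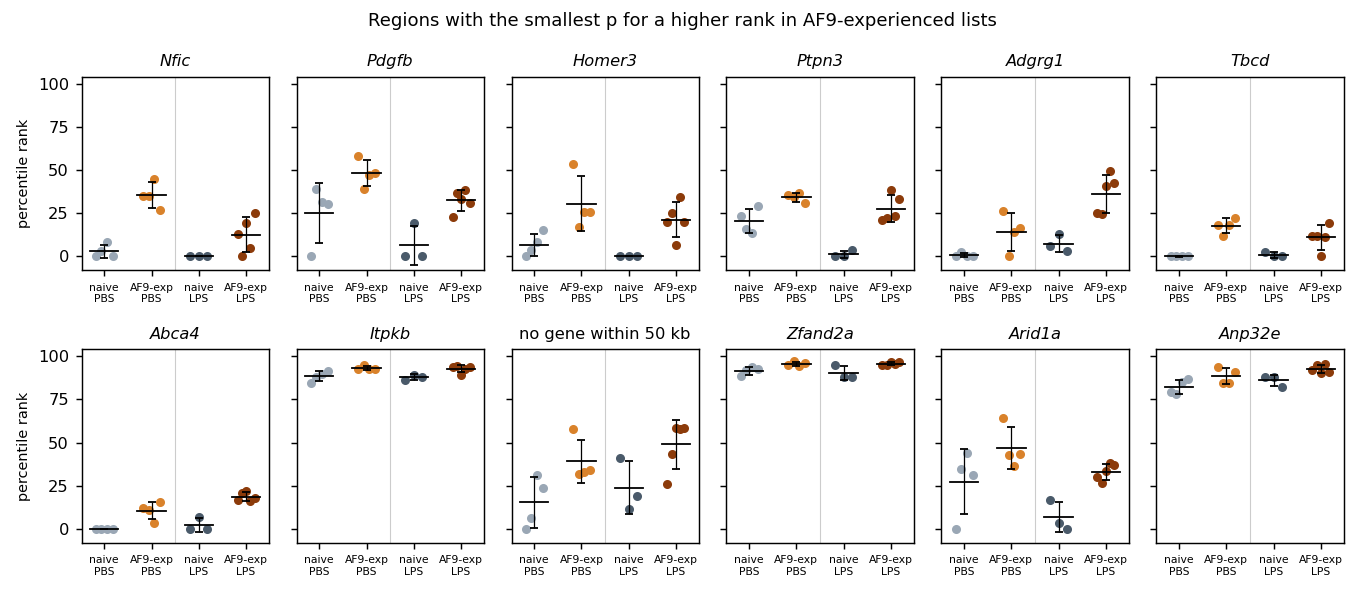
Percentile rank of the 12 regions with the smallest p for a higher rank in AF9-experienced lists; each point is 1 list, lines are group means and bars SD (n = 4, 4, 3 and 5 from left to right). Pdgfb, Homer3, Ptpn3, Abca4 and Zfand2a are the panels in which the groups do not overlap in either treatment.

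The 12 regions with the smallest p for a lower rank were mostly gene ends (10 of 12), and none was called (each adjusted p = 0.943, limma). Their direction too was the same in each setting that gave a value, with the same limit that the settings reuse the lists of the pick. The clearest was the gene end of Pcgf6, a subunit of the Polycomb repressive complex PRC1 (chromosome 19, 47050051 to 47051149). It stood at 47.9, 46.3, 49.0 and 47.6 in naive PBS lists and at 41.5, 24.0, 29.7 and 32.7 in AF9-experienced PBS lists. After LPS it stood at 36.8, 39.2 and 56.8 in naive lists and at 25.2, 20.1, 26.1, 13.0 and 17.4 in AF9-experienced lists, so that the groups did not overlap in either treatment (difference -19.7, interval -30.2 to -9.19; unadjusted p = 0.00073; -18.2 without the short lists). A region inside Ldlrad4, which encodes an inhibitor of TGF-beta signalling, was likewise apart in both treatments: 56.4, 34.1, 26.4 and 28.8 against 0, 20.9, 21.8 and 11.8 after PBS, and 28.8, 30.0 and 39.3 against 17.6, 19.5, 0, 0 and 15.1 after LPS. Its difference was -22.5 (interval -34.7 to -10.4), or -15.2 without the short lists.

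Scaf8, an RNA polymerase II binding protein gene, had the smallest p for a lower rank (unadjusted p = 0.000621). Its gene end (chromosome 17, 3114411 to 3115918) was at 94.5, 94.0, 91.0 and 91.5 in naive PBS lists and 79.8, 85.7, 85.3 and 85.8 in AF9-experienced ones. After LPS the groups overlapped, at 83.0, 88.3 and 96.6 against 83.6, 84.0, 85.2, 83.3 and 73.6 (difference -7.99, interval -12.2 to -3.80). The gene end of Tdrd3, a reader of methylated arginine (chromosome 14, 87415798 to 87417341), showed the same form: 86.2 ± 2.98 (n = 4) against 75.6 ± 2.22 (n = 4) after PBS, apart, and 90.3 ± 5.57 (n = 3) against 85.3 ± 3.52 (n = 5) after LPS, overlapping. The gene end of Cldn12, a claudin, was apart after LPS only, at 39.7, 49.0 and 55.0 against 30.7, 30.8, 22.0, 19.8 and 18.7 (difference over both treatments -19.4).

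The gene ends of Ddx43, Rpl6 and Map6d1 were near the floor in AF9-experienced lists. Ddx43, an RNA helicase gene, was at 18.3 ± 6.93 (n = 4) against 1.16 ± 1.45 (n = 4) after PBS and at 15.2 ± 6.14 (n = 3) against 4.44 ± 4.99 (n = 5) after LPS. Rpl6, a ribosomal protein gene, was at 21.5 ± 1.54 (n = 4) against 7.52 ± 5.31 (n = 4) after PBS, but its naive LPS lists ranged from 0 to 49.6 against 0 to 2.83. Map6d1, a microtubule-associated protein gene, overlapped in both treatments. It had a peak in 1 AF9-experienced list of each treatment, so it entered the test through the naive lists. The remaining 4 were the gene ends of Dcaf10 (-9.63), a ubiquitin ligase receptor, of the histone H4 gene H4f16 (-12.9) and of Coasy (-10.8), the last enzyme of coenzyme A synthesis, and a region inside Arid1b (-8.36), which like Arid1a encodes a BAF subunit.

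**Figure D3:**
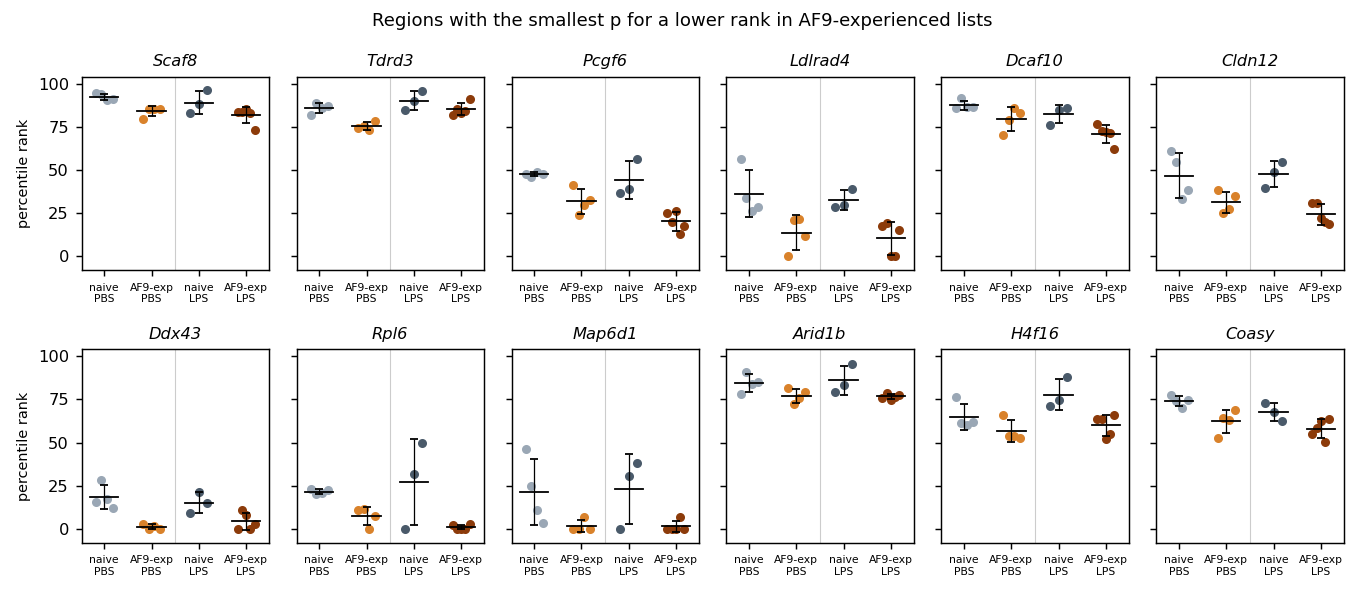
Percentile rank of the 12 regions with the smallest p for a lower rank in AF9-experienced lists, drawn as in the plot of the higher ones. In the Pcgf6 and Ldlrad4 panels the AF9-experienced lists lie below all naive lists in both treatments.

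The other 11 of the 18 regions whose groups did not overlap in either treatment had a larger p. They are given here after their values were seen. Ranking higher were regions inside Nbeal1 (3.0), Ift74, an intraflagellar transport gene (9.46), and Ubr4, a ubiquitin ligase gene (17.7), and the gene end of Gpatch2l (6.18). Ranking lower were the gene ends of Macir (-10.6), Klc2, a kinesin light chain gene (-13.5), Fcor (-14.7) and Nkapd1 (-6.50), and regions inside Parp11 (-8.35), Snx10, a sorting nexin gene (-16.2), and Abca4 (-15.8). Abca4 thus had 1 separated region in each direction. The region inside it (chromosome 3, 122121974 to 122122657) was at 55.5 to 66.6 in the 4 naive PBS lists against 28.9 to 55.4 in the 4 AF9-experienced ones, and at 41.6 to 52.4 in the 3 naive LPS lists against 17.2 to 38.5 in the 5 AF9-experienced ones. The gene end of Nkapd1 stood at 81.2, 81.4, 80.8 and 80.8 against 75, 71.4, 78.6 and 75.8 after PBS, and 81.5, 82.4 and 86.6 against 80.3, 72.9, 78.3, 74.6 and 75.5 after LPS.

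By gene list the exposure difference was small. The 22 lists hold 393 genes, of which 326 had a tested region; no region of any list was called (0 higher and 0 lower). List medians ran from -0.61 to 2.45 points, beside 0.18 for all tested regions. In 9 of the 22 lists the median had the same sign after PBS and after LPS. The signs were opposite for the neutrophil, mast cell and basophil, AP-1, TGF-beta and antigen presentation lists. In the rest a median was exactly 0 in at least 1 treatment and so had no sign. The share of regions with an unadjusted p under 0.05 was 0% to 9.09% over the lists, beside 4.44% overall.

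Lists that bear on leukaemia and stem cells were near the overall median. The MLL-AF9 program (62 regions of 18 genes) had a median of 0.83, with 3 regions higher and 1 lower at an unadjusted p under 0.05 and 31 of 62 of the same sign in both treatments. Its smallest p was at a region inside Pbx3, a partner of Hox proteins (difference 13.4, unadjusted p = 0.0174), where naive and AF9-experienced means were 14.2 ± 14.1 (n = 4) and 34.8 ± 5.19 (n = 4) after PBS and 59.7 ± 10.3 (n = 3) and 65.5 ± 2.86 (n = 5) after LPS. The stem cell identity factors (77 regions of 22 genes) had a median of 0.77 and 46 of 77 regions of the same sign, with the smallest p 12.5 kb from Fli1, an ETS factor (13.9). In the HSPC surface markers (22 regions of 8 genes; median -0.05; 7 of the same sign) it was inside Flt3 (15.3). Chromatin regulators (60 regions of 19 genes) had a median of 0.65, and cell cycle genes (55 of 22) a median of -0.05, with the smallest p near Ccnd1, which encodes cyclin D1 (12.5). Without the 3 short lists the differences were 9.58 inside Pbx3, 9.37 near Fli1, 15.5 inside Flt3 and 8.30 near Ccnd1.

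Lists of lineage genes held few regions. Myeloid progenitor genes (27 regions; median 0.27) had their smallest p at the Irf8 end given below, and lymphoid priming genes (45; 0.64) near Dntt, the terminal transferase of antigen receptor joining (-15.8). Megakaryocyte and erythroid genes (24; 0.42) had it at the gene end of Itga2b, the platelet integrin also used as a stem cell marker (15.4, unadjusted p = 0.0151), which stood at 28.5 ± 15.5 (n = 4) against 42.4 ± 11.7 (n = 4) after PBS and at 36.4 ± 7.98 (n = 3) against 53.4 ± 9.66 (n = 5) after LPS, overlapping in both. Monocyte and macrophage markers (18 regions; median -0.61) had the smallest p near Ly86 (-10.4), neutrophil granule markers (8; 0.66) near Fpr2 (4.35), mature lymphocyte markers (8; 2.45) at the Cd3d end (4.49), mast cell and basophil markers (8; 0.29) near Gata2 (7.12), and endothelial and stromal markers (14; -0.30) inside Pecam1 (13.4). The neutrophil list had medians of opposite sign, -5.58 after PBS and 6.89 after LPS. Without the 3 short lists the differences were -13.1 near Dntt, 16.8 at Itga2b, -11.4 near Ly86 and -2.73 near Fpr2. They were 1.28 at Cd3d, 3.76 near Gata2 and 5.90 inside Pecam1.

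Inflammatory lists gave no called region either. AP-1 and immediate early genes (99 regions of 28 genes) had a median of -0.49 and 36 of 99 regions of the same sign. Their smallest p was at the gene end of Batf, an AP-1 factor (difference -15.4, unadjusted p = 0.00538), at 37.1, 32.9, 20.7 and 19.2 in naive PBS, 0, 20.3, 18.8 and 0 in AF9-experienced PBS, 12.8, 17.8 and 18.7 in naive LPS and 14.1, 0, 0, 0 and 3.74 in AF9-experienced LPS lists, with 1 list overlapping in each treatment. NF-kB and TLR genes (68 regions; median -0.10) had it inside Bcl3 (10.6), IL-6, STAT3 and SOCS genes (57; 0.95) near the kinase gene Pim1 (16.7, unadjusted p = 0.00959), and interferon-stimulated genes (34; 2.25) near Trim25 (14.1). TGF-beta and BMP signalling genes (76; 0.61) had it inside Smad3 (12), TNF and death receptor signalling genes (32; 1.24) at the Traf3 end (18.6, but 33.8 after PBS and 2.41 after LPS), niche retention and adhesion genes (45; 1.98) at the Cd44 end (-10.6) and antigen presentation genes (28; 0.08) near Tap2 (-14.2). Housekeeping control genes (16 regions, median 0.81) had it near Actb (4.92, limma unadjusted p = 0.0276), a value of the order of several of those above. Without the 3 short lists the differences were -11.5 at Batf, 7.66 at Bcl3, 9.02 at Pim1, 6.78 at Trim25 and 4.57 at Smad3. They were 16.1 at Traf3, -12.0 at Cd44, -9.96 at Tap2 and 2.62 at Actb.

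**Figure D4:**
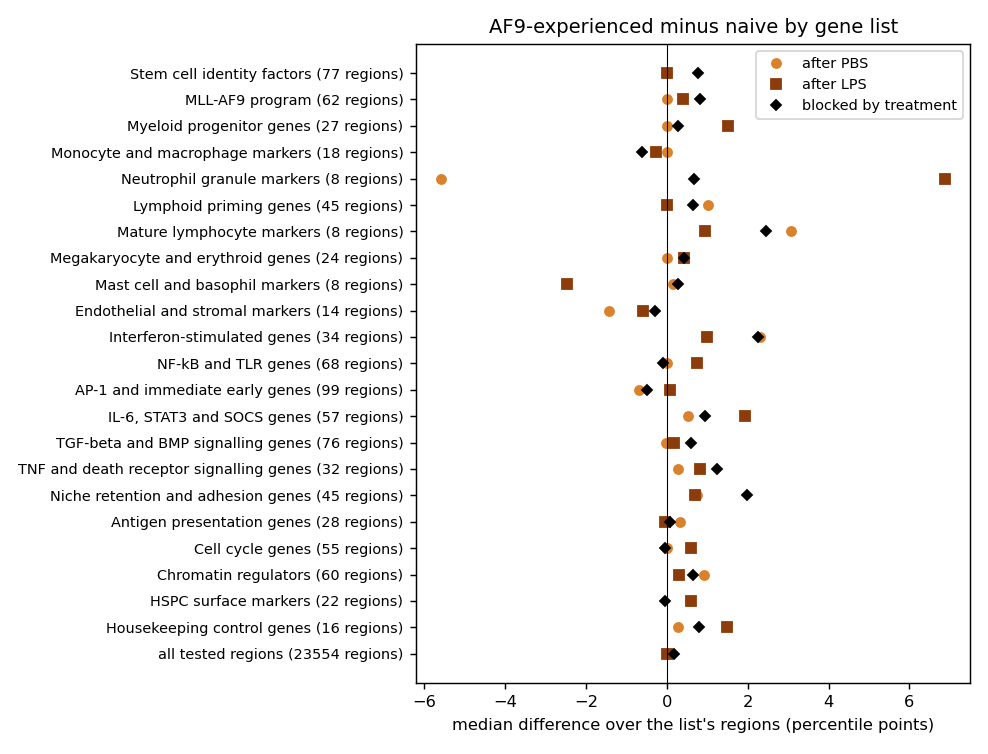
Median exposure difference over the regions of each gene list, after PBS (circles), after LPS (squares) and blocked by treatment (diamonds), in percentile points. Most medians lie within 2 points of 0; the neutrophil granule markers, with 8 regions, lie at -5.58 after PBS and 6.89 after LPS.

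The strongest gene-end regions of 13 genes were examined whatever their result. The interferon regulatory factor gene Irf1 (chromosome 11, 53769556 to 53770864) was the only one of them whose 95% interval left out 0 (difference 5.00, interval 0.716 to 9.29; adjusted p = 0.943, limma). It stood at 79.1, 81.1, 81.5 and 81.8 in naive PBS lists, below the 87.5, 82.8, 85.7 and 84.3 of AF9-experienced PBS lists, but after LPS at 88.2, 77.7 and 73.9 against 84.7, 79.3, 87.2, 87.2 and 90.5, which overlap. Without the short lists the Irf1 difference was 2.83, and the short list naive LPS 3 holds its lowest value (73.9). Irf8, a factor of monocyte and dendritic cell fate (chromosome 8, 120735725 to 120736903), gave 36.6, 57.9, 59.7 and 55.4 against 64.9, 63.7, 63.1 and 60.3 after PBS and 58 ± 7.97 (n = 3) against 62.3 ± 7.46 (n = 5) after LPS. Its difference of 7.54 (interval -0.843 to 15.9) was 2.46 without the short lists, of which naive PBS 1 holds the lowest value.

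Of the fusion's best known targets, neither gene end passed, and the sign varied with the region. The gene end of Meis1 (chromosome 11, 19018455 to 19020013) differed by 8.23 (interval -1.30 to 17.8), with 40.7 ± 7.96 (n = 4) against 51.6 ± 6.69 (n = 4) after PBS and 49.7 ± 3.73 (n = 3) against 55.1 ± 10.4 (n = 5) after LPS. Hoxa9 (chromosome 6, 52221315 to 52222505) differed by -7.97 (interval -20.8 to 4.81), with 51.6 ± 5.87 (n = 4) against 41.4 ± 12.8 (n = 4) and 42.3 ± 7.61 (n = 3) against 36.7 ± 18.3 (n = 5). Without the short lists these differences were 4.02 and -3.20. Another region at the end of Hoxa9 (chromosome 6, 52225681 to 52226502) differed by 7.92 (interval -3.24 to 19.1), and a region inside Meis1 (chromosome 11, 18948708 to 18949698) by -11.8 (interval -23.9 to 0.399).

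None of the other 9 gene ends passed either. The stem cell factor gene Mecom differed by -0.295 (interval -5.64 to 5.05), the myeloid factor gene Cebpa by 1.72 (-3.74 to 7.17), Socs3, an inhibitor of IL-6 signalling, by 2.66 (-3.12 to 8.43) and the receptor gene Flt3 by 2.93 (-0.948 to 6.82). For these 4 the intervals leave out differences of more than 10 points in either direction. Intervals were wider at Klf4 (-0.971, from -10.5 to 8.61), at Cxcr4, the receptor that holds HSPCs in the marrow (-4.32, from -13.2 to 4.59), at Nfkbia, the NF-kB inhibitor (-5.64, from -12.7 to 1.38), at Cdk6 (-7.32, from -19.2 to 4.55) and at Cebpb (-5.28, from -24.9 to 14.3). The signs at Cebpa, Socs3 and Klf4 turned without the short lists, and those at Mecom, Flt3 and Cebpb in other settings. At Cebpb the lists naive PBS 1, AF9-experienced PBS 1 and AF9-experienced LPS 5 held no peak, and the other 13 stood at 28.3 to 58.5.

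**Figure D5:**
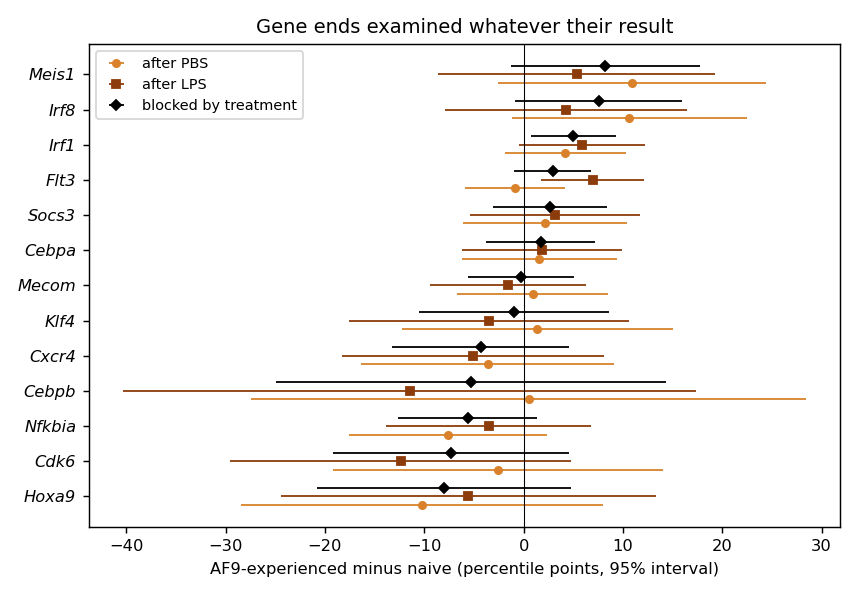
Exposure difference at 13 gene ends after PBS (circles), after LPS (squares) and blocked by treatment (diamonds), with 95% intervals from limma, in percentile points. The blocked interval leaves out 0 at Irf1 only.

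Values of whole lists did not pass a test between exposure groups either. The number of autosomal peaks was 59060 ± 27657 (SD, n = 4) in naive and 70318 ± 30136 (n = 4) in AF9-experienced PBS lists and 59292 ± 18795 (n = 3) and 67685 ± 10301 (n = 5) after LPS. The mean difference of 9826 peaks did not pass the exact permutation test within treatment (two-sided p = 0.379, adjusted p = 0.681). The median fold enrichment differed by 1.64 (exact p = 0.460, adjusted p = 0.681) and the median peak width by -14.8 bp (exact p = 0.849). The likeness of lists within and between exposure groups was close: the mean Jaccard index of equal-length lists within and between groups was 0.747 and 0.755 after PBS and 0.766 and 0.762 after LPS, a mean difference of -0.00184 (one-sided exact p = 0.545, adjusted p = 0.681).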

How the data were processed

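Reads were processed by the submitters, per whose notes BWA, MACS3, Trim Galore, Picard and FastQC were used, with no version given, on build GRCm38. The 32 samples are 2 technical libraries for each of 16 replicates, with 1 deposited peak list per replicate. Per the file format, the deposited lists give for each peak the authors' fold enrichment (a ratio), −log10 p and −log10 q; the authors' filters are not given in the sources used here. The labels name Omni-ATAC as well as a Chromium chemistry, and which of these made the libraries could not be read from the peaks. Depth cannot be read from peak lists. Whether replicates are single mice is not stated, so p-values measure the spread between these lists.

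From each list the top 19100 autosomal peaks by −log10 p were kept. Overlapping peaks were merged into 31846 regions, of which the 23554 found in 3 or more lists were tested with limma 3.58.1 (R 4.3.3; trend and robust options) on percentile ranks with treatment as a term, and with 1 mean per group for each treatment and the interaction. Calls needed a Benjamini-Hochberg adjusted p under 0.05. Because values are ranks, a region can move when others do. The region picks in 1 treatment came from fits of its 8 lists alone. Single values per list were tested by exact permutation within treatment (Python 3.11.15). Each region took the name of the closest protein-coding model in RefSeq (GRCm38.p6) within 50 kb, which need not be the gene it regulates. The blocked fit was tried on simulated data with differences set at regions of middle rank. It called 39 of 100 regions set to differ by 20 points and 94 of 100 set to differ by 40 points. Of 23354 unchanged regions it called 3. The simulated noise was independent between regions and had the same spread in every list, whereas 3 of the real lists were weak. Both sizes of difference were set in the same fit, and recovery with fewer changed regions was not tested.

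The named regions are the 12 with the smallest p in each direction among those with the same sign in both treatments, the member with the smallest p of each gene list without a call, and 13 gene ends. Members, lists and rules were chosen with earlier results of these data known. Alternatives covered ranking, list length, left-out lists, filters, covariates, weights and the replicate block. Results for a few genes are not reported here.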

Additional observations from a re-analysis of the deposited data

Results flagged for a closer look

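A list was marked where it lay farther from the rest of its group than a Dixon test at 95% allows. For normal values chance does this in about 1 in 20 groups, a rate that need not hold for ranks with a floor at 0. Where all other lists of a group are at 0, any value above 0 is marked. Of 123 groups of 4 or 5 lists, 21 (17.1%) were marked. AF9-experienced PBS 1 stood apart in its number of autosomal peaks (25219), its median fold enrichment (5.34) and its median peak width (484 bp). The same list was high at the region without a gene within 50 kb (57.8) and at H4f16 (66.2), and low at Scaf8 (79.8) and at Cebpb, where it had no peak (0). Naive PBS 1 was high at H4f16 (76.5) and had no peak at Cebpb (0). Naive PBS 2 was high at Adgrg1 (2.34, the others at 0) and Dcaf10 (91.7), naive PBS 3 at Tbcd (0.398, the others at 0), and naive PBS 4 low at the Flt3 end (85.7). AF9-experienced PBS 2 was high at Itpkb (95.1) and Socs3 (73.8), and AF9-experienced PBS 3 at Map6d1 (6.64, the others at 0). Among AF9-experienced LPS lists, list 3 was low at Itpkb (89.3), list 5 low at Scaf8 (73.6) and Mecom (61.5), list 4 high at Map6d1 (7.10, the others at 0) and list 2 high at Cdk6 (34.6).

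Peaks on chromosome Y are not among the tested regions, and their number enters only as a covariate in an alternative setting. They numbered 3 in AF9-experienced LPS 1, 2 in AF9-experienced LPS 2 and in each naive LPS list, 1 in naive PBS 3 and 0 in the other 10 lists.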

How the results depend on the processing

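The count of called regions blocked by treatment was 0 in each direction in all 32 other settings (30 planned, 2 chosen after seeing the data), 16 of which leave out 1 list each. The smallest adjusted p in any of them was 0.199 (library weights). At an unadjusted p under 0.05 the counts ranged from 241 to 1902 higher and 157 to 2223 lower. Residuals of same-numbered lists correlated at -0.18 to 0.23 and above 0.1 in 2 of 7 pairs. The highest value was that of PBS replicate 1, whose lists are both among the short ones. These values do not settle whether the replicate numbers pair the lists. With the replicate block 0 regions were called, the lower ones at an unadjusted p under 0.05 numbering 470.

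Within PBS, library weights gave 13 higher and 12 lower calls, and leaving out 1 list gave 0 and 0. Within LPS, lower calls numbered 0 by fold enrichment, 0 at the shorter list length and 8 with library weights, and 0 to 9 when 1 list was left out; higher calls numbered 0 to 3. Each of the 3 called regions lost its call by fold enrichment.

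The same-sign share of regions picked after PBS was 52.8% by fold enrichment, 55.4% without the 3 short lists, 59.4% at p under 0.05 and 77.3% at p under 0.001. For regions picked after LPS it was 38.6% without the short lists and 45.5% at p under 0.001. Leaving out 1 list moved the Jaccard difference from -0.0109 to 0.00667 and the width difference from -91.1 to 25.9 bp, and no setting passed for a single value per list.

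Of 1830 values of 58 named regions, 1793 kept their direction and side of the threshold, and 37, at 10 regions, changed sign; none was called. The 24 regions with the smallest p kept their direction, but they were picked from the same lists that these settings reuse. Ranked by fold enrichment, the signs turned at Cd3d (-0.914), the Flt3 end (-0.865) and Socs3 (-2.36). Without the short lists they turned at Cebpa (-1.04), Fpr2 (-2.73), Klf4 (0.820) and Socs3 (-0.605), with longer lists at Cebpa (-0.335), Fpr2 (-0.875), Klf4 (0.263) and Socs3 (-0.194), and with median fold as covariate at Cebpa (-1.01), Fpr2 (-1.76), Mecom (0.185) and Socs3 (-0.230). With library weights they turned at Cebpa (-0.171), Fpr2 (-1.52), Klf4 (0.623) and Mecom (0.470), and with weights and longer lists without the short ones at Cebpa (-0.269), Fpr2 (-1.31), Klf4 (0.366) and Mecom (0.102). Y peaks as covariate turned Klf4 (2.00) and Mecom (0.715), the replicate block Mecom (0.770), presence in full lists Tap2 (0.129) and fixed windows Traf3 (-3.12). Leaving out 1 list gave -12.3 to 0.894 at Cebpb, -3.57 to 1.28 at Klf4 and -1.33 to 0.659 at Mecom. The causes were not tested. Depth is not known from the lists, and the weakest regions, at 0 in several lists, rest on few peaks.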
